A study of Mastomys natalensis with 4 samples.

Results

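Keratins, the proteins of desmosomes and the precursors of the cornified envelope were examined in the gastric mucosa of Mastomys natalensis, a multimammate rodent prone to tumours of the enterochromaffin-like (ECL) endocrine cells of the stomach. Total RNA was hybridised to Affymetrix mouse U74 arrays. The 2 groups were mucosa after 16 weeks of loxtidine (spelled loxitidine in the labels), a stage labelled neoplasia of ECL cells (n = 2), and mucosa after 8 weeks, a stage labelled hyperplasia (n = 2). Loxtidine blocks the histamine H2 receptor and was given to both groups, so the comparison is between 2 durations of the drug, which differ together with the stage, and untreated mucosa was not analysed here. The members were taken by gene symbol, as every probe set annotated to a single numbered keratin, an Sprr gene, a desmoglein (Dsg), a desmocollin (Dsc), a plakophilin (Pkp) or to Dsp, Jup, Evpl, Ppl, Ivl, Lor, Lgals7 or Trp63. This gave 86 probe sets of 61 genes among 12488 probe sets, and the annotation named none for Evpl. Above a floor intensity of 12.15 on at least 2 of the 4 arrays lay 59 member probe sets of 49 genes, among 7883 probe sets of 5864 genes in all.

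Keratins are the intermediate filaments of epithelial cells and assemble as pairs of a type I and a type II chain. Simple epithelia, such as the glands of the stomach, use Krt8 with Krt18 and Krt19. Stratified squamous epithelia use Krt5 with Krt14 in the basal layer, and above it Krt4 with Krt13 in moist linings or Krt1 with Krt10 in keratinised ones. Desmosomes anchor these filaments at cell contacts through cadherins and plaque proteins. The cornified envelope is the protein shell of the outermost squamous cells, made of small proline-rich proteins (Sprr), loricrin and involucrin. The rodent stomach has both kinds of lining, a glandular stomach and a forestomach lined by keratinising squamous epithelium. The glandular stomach was represented on all 4 arrays: the proton pump subunit Atp4a read 4850 and 4034 in the 16-week samples and 4442 and 5304 in the 8-week samples, in arbitrary intensity units, as are all levels below.

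The 4 arrays had median intensities of 19.2 and 18.9 (16 weeks) and of 15.4 and 17.3 (8 weeks), and 55.3% to 62.4% of probe sets lay above the floor. The probes match mouse sequence, so a low reading does not show that a Mastomys transcript was absent, and levels were compared between samples for the same probe set and not between probe sets. Of the 59 tested member probe sets 26 have a design in which probes may be shared with related sequences or are fewer than usual. In whole mucosa, fewer cells of a type and less RNA per cell cannot be told apart. Nothing in the labels tells whether a group's samples are different animals, so the spread behind each p-value, that between these samples, could be technical. No sequence or genome was used, and the probe sets are given no position.

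Between 16 and 8 weeks Krt18, Krt20 and Krt19 of simple epithelium had the smallest p-values of the family, with Krt20 in the opposite direction. The readings of most squamous keratins and envelope genes overlapped between the groups. Of the 49 tested member genes 0 passed limma's test after Benjamini-Hochberg adjustment (smallest adjusted p = 0.309), as did 0 of all 5864 tested genes (0%). At an unadjusted p under 0.05 there were 3 member genes higher at 16 weeks (Krt20, Krt36 and Pkp1), against 7.52% of all genes, and 3 lower (Krt18, Krt19 and Krt8), against 5.82%. Groups that did not overlap were found in 14 member genes higher at 16 weeks and in 6 lower, where all genes gave 27.6% higher and 21.1% lower, so neither count lay clearly above the background. By sign alone 35 of the 49 were higher at 16 weeks, with a median log2 difference (16 weeks minus 8 weeks) of 0.21, beside 55.3% of all genes and a median of 0.07. That split depended on scaling: with the arrays on a common median 24 of 50 were higher, beside 40.4% of all genes. With the bacterial hybridisation controls set level 41 of 47 were higher, beside 87.5% of all genes.

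**Figure D1:**
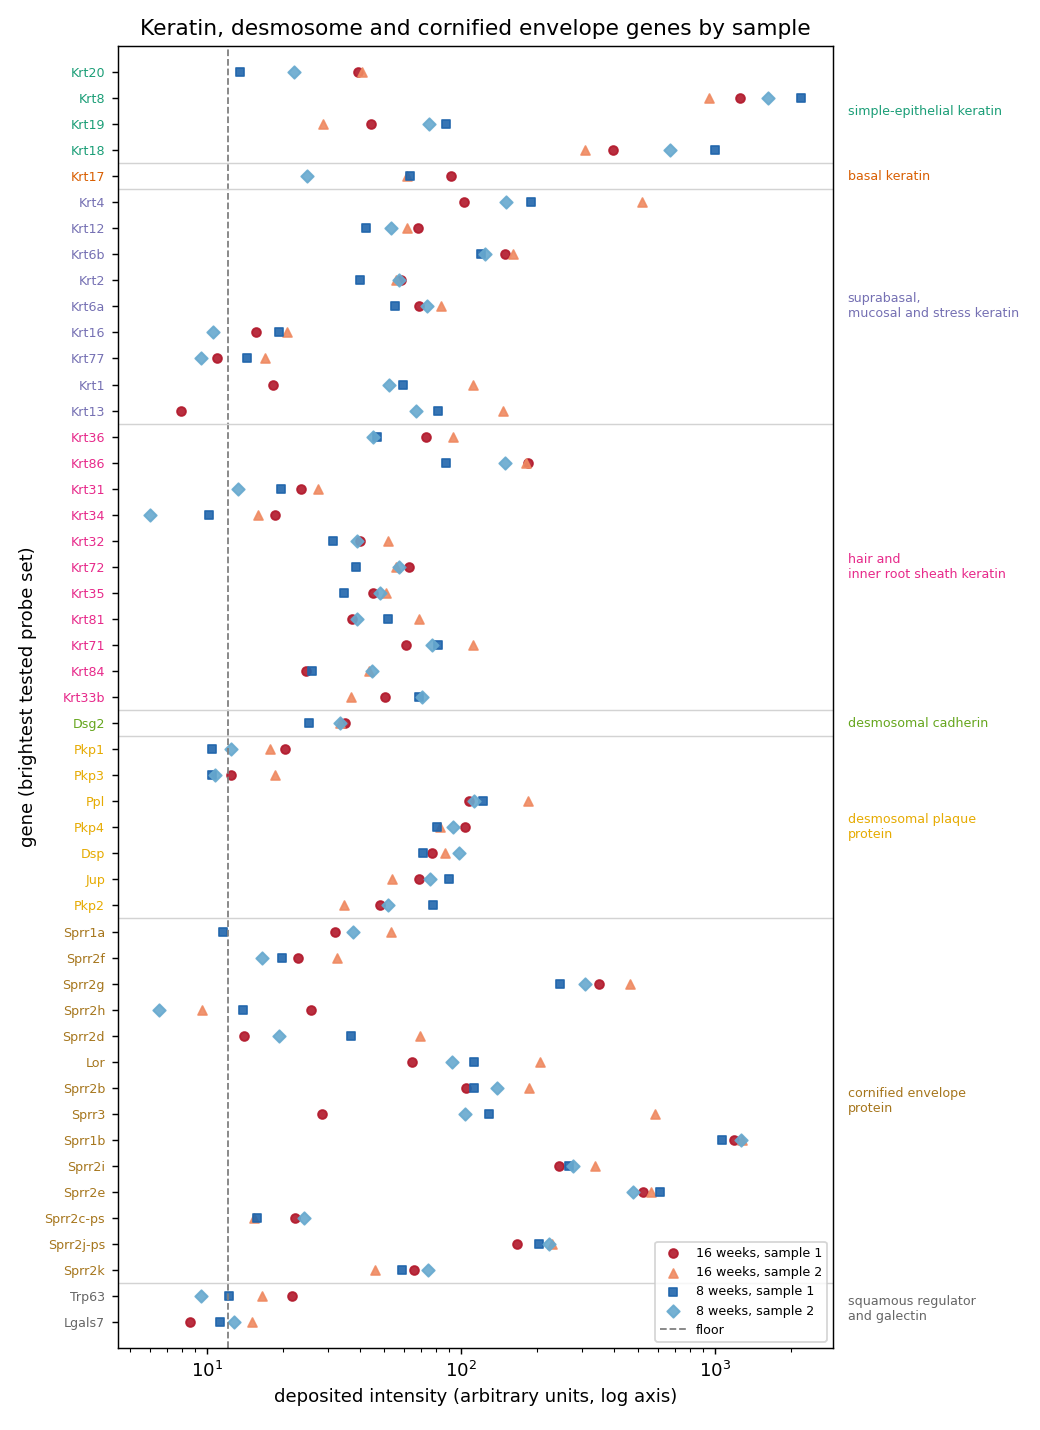
Deposited intensity (log axis) of the 49 tested member genes, each by its brightest tested probe set, in the 2 samples at 16 weeks (red circle, orange triangle) and the 2 samples at 8 weeks (blue square, light blue diamond), with the floor of 12.15 as a dashed line. Krt8 and Krt18 lie lower in both 16-week samples, while Sprr3, Krt13, Krt4 and Krt1 lie highest in 16-week sample 2 and lowest in 16-week sample 1.

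The simple-epithelial keratins Krt8, Krt18 and Krt19 read lower in both 16-week samples than in either 8-week sample. Krt18, the type I partner of Krt8, read 399 and 308 in the 16-week samples, against 1000.5 and 666 in the 8-week samples. The log2 difference was -1.22 ± 0.32 (SE, n = 2 per group), 2.33-fold lower (limma adjusted p = 0.309). Krt8, the type II chain, read 1261 and 954 in the 16-week samples, against 2183 and 1616 in the 8-week samples (-0.78 ± 0.30; limma adjusted p = 0.353). Both chains of the pair thus had their highest reading in 8-week sample 1 and their lowest in 16-week sample 2. Krt19, a type I chain of simple and ductal epithelia, read 44.4 and 28.6 in the 16-week samples, against 87.3 and 75.4 in the 8-week samples (-1.19 ± 0.31; limma adjusted p = 0.309). A second Krt19 probe set, which can share probes with related genes, read 30.7 and 42.8 in the 16-week samples, against 64.2 and 40.6 in the 8-week samples, and there the groups overlapped (-0.49 ± 0.34).

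Krt20, a type I chain of mature surface cells of the stomach and intestine, lay the other way. It read 39.5 and 40.8 in the 16-week samples, against 13.5 and 22.0 in the 8-week samples, a log2 difference of 1.22 ± 0.32 or 2.33-fold higher (limma adjusted p = 0.309). The 16-week samples were close together and both above the 8-week samples. By unadjusted p Krt18, Krt20 and Krt19 held the first 3 places among the members. Krt18 had a difference below that of all but 1.52% of tested genes, Krt19 below all but 1.67%, and 98.3% of tested genes lay below Krt20. The fifth gene of the group on the array, Krt7, a keratin of ducts, read 7.8 and 8.1 in the 16-week samples and 6.4 and 6.2 in the 8-week samples, under the floor in all 4 samples.

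The direction of Krt8, Krt18, Krt19 and Krt20 was the same under each of the 13 alternatives run, but most of these could not turn it. The groups did not overlap, so leaving out a sample could not change the sign. The lower floor, the filters and the block left the values unchanged, so mainly the rescalings of the arrays tested the direction. Under rescaling the size changed: Krt8 gave -0.42 after quantile normalization and -0.17 with the hybridisation controls aligned, where the median of all genes was 0.60. Markers of the intestine and of smooth muscle also lay lower at 16 weeks, as did 2622 of all 5864 tested genes. Pancreatic acinar genes went the other way, with 9 of 10 tested higher at 16 weeks (median 0.87). The 7 tested of 14 intestinal-epithelium markers were all lower at 16 weeks, with summed intensities of 650 and 405 in the 16-week samples and 4095 and 844 in the 8-week samples, and no marker of the list read 0. The 9 tested of 11 smooth muscle markers summed to 1822 and 1837 in the 16-week samples and 3533.5 and 3059 in the 8-week samples, with 7 of 9 lower. Without 8-week sample 1, where the intestinal sum was highest, the differences were -0.93 for Krt18, -0.56 for Krt8, -1.08 for Krt19 and 0.87 for Krt20. The part of these tissues in the result was not tested. Some glandular markers were also lower at 16 weeks: the trefoil peptide Tff2 gave -1.09, the proton pump subunit Atp4b -0.84, the creatine kinase Ckb -0.83 and the mucin Muc5ac -0.63. Others of the same lists lay higher, with 0.71 for Ctse, 0.67 for Aqp4 and 0.10 for Car2. The groups did not overlap, with lower readings at 16 weeks, in 4 of 6 tested surface and neck mucous cell genes (median -0.20). The same held in 2 of 6 tested parietal cell genes (median -0.15) and in 21.1% of all tested genes. The 6 tested ECL and neuroendocrine cell genes had a median of 0.50, with 4 higher and 2 lower. The part of these cell types in the keratin result was not tested either.

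**Figure D2:**
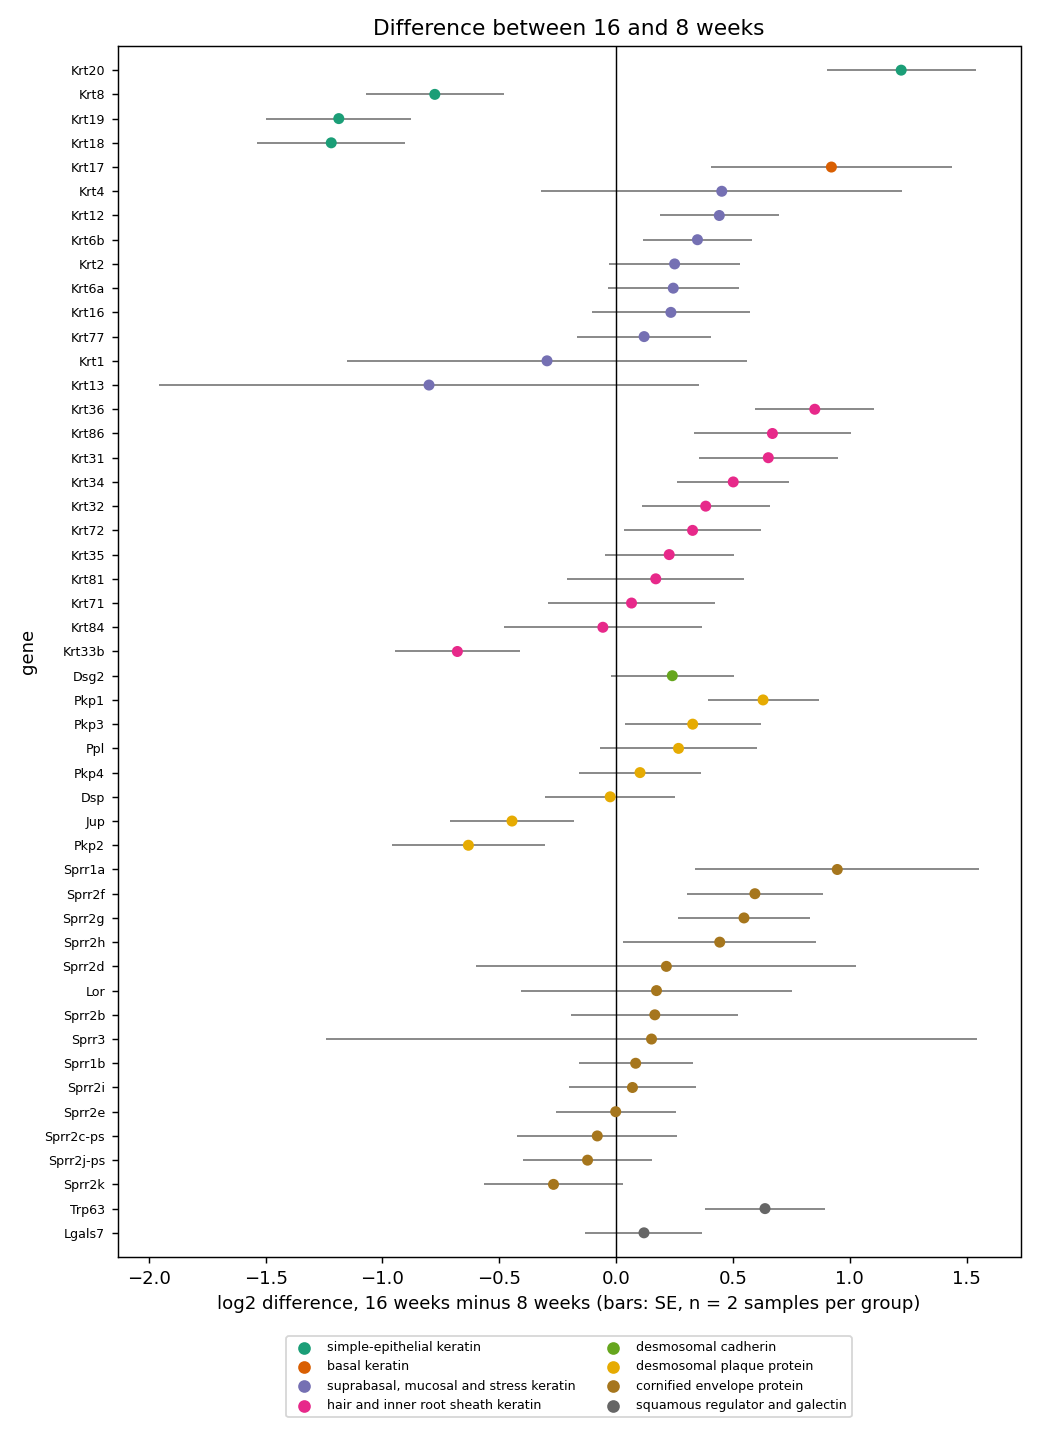
Log2 difference between 16 and 8 weeks (x axis; points right of 0 are higher at 16 weeks) of the 49 tested member genes, coloured by role, with bars for the SE from n = 2 samples per group. Krt18 and Krt19 lie near -1.2 and Krt20 near 1.2, with SEs of 0.32, 0.31 and 0.32. Sprr3 (0.15 ± 1.39) and Krt13 (-0.80 ± 1.16) have the widest bars.

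The squamous genes Sprr3, Krt13, Krt4, Krt1, Lor and Sprr2d, by their brightest probe sets, differed more between the 2 samples at 16 weeks than between the groups. Others of the class, such as Krt6b, Krt12, Sprr2f and Sprr2g, did not show this. Sprr3, a cornified envelope precursor of the oesophagus and other moist squamous linings, read 28.4 and 584 in the 16-week samples, against 130 and 104 in the 8-week samples. Its ratio of 20.6 between 16-week sample 2 and sample 1 ranked 1st of 5864 tested genes. Krt13 ranked 2nd, at 7.9 and 147 in the 16-week samples, against 81.5 and 66.6 in the 8-week samples; since sample 1 lay under the floor, sample 2 was at least 12.1-fold higher. Both 8-week samples lay between the 16-week samples for each of these genes. A second Krt13 probe set had the same order, 15.8 and 115 in the 16-week samples, against 76.9 and 47.8 in the 8-week samples. The remaining Krt13 probe set, of reduced design, did not: it read 12.9 and 13.9 in the 16-week samples and lay under the floor in both 8-week samples, at 3.5 and 4.1. The other Krt13 probe sets, which had that order, can both share probes with related sequences.

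Krt4, the partner of Krt13 in moist squamous linings, read 104 and 518 in the 16-week samples, against 190 and 151 in the 8-week samples (ratio between the 16-week samples 5.01, rank 18). Its second probe set was above the floor in 16-week sample 2 alone, at 50.9, against 9.2 in 16-week sample 1 and 7.0 and 6.9 at 8 weeks. Krt1, a suprabasal keratin of keratinised epithelium, read 18.3 and 112 in the 16-week samples, against 59.1 and 52.4 in the 8-week samples (ratio 6.14, rank 10). These keratins thus shared the order of samples seen for Sprr3 and Krt13. Loricrin (Lor), a main protein of the cornified envelope, read 64.6 and 205 in the 16-week samples, against 113 and 92.4 in the 8-week samples (ratio 3.17, rank 49), on a probe set of reduced design. A second Lor probe set did not show that order, at 25.4 and 25.7 in the 16-week samples and 20.1 and 22.1 in the 8-week samples. Sprr2d, of the same envelope family, read 14 and 68.9 in the 16-week samples, against 37.1 and 19.3 in the 8-week samples (ratio 4.92, rank 19). The group comparison of these genes gave standard errors as large as or larger than the differences in all 6. Large standard errors go with the spread between the 16-week samples by which these genes stand out, so they are not a separate result. The log2 differences were 0.15 ± 1.39 for Sprr3, -0.80 ± 1.16 for Krt13, 0.45 ± 0.77 for Krt4, -0.30 ± 0.86 for Krt1, 0.17 ± 0.58 for Lor and 0.21 ± 0.81 for Sprr2d.

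Which 16-week sample was kept decided their direction, but this outcome was fixed in advance. Both 8-week samples lay between the 16-week samples in each of these genes. The sign therefore had to be positive without 16-week sample 1 and negative without sample 2, and only the sizes are informative. Without 16-week sample 1 Sprr3 gave 2.33, Krt4 1.61, Krt1 1.01, Krt13 0.9985, Lor 1.01 and Sprr2d 1.36. Without 16-week sample 2 Sprr3 gave -2.03, Krt4 -0.71, Krt1 -1.60, Krt13 -2.60, Lor -0.66 and Sprr2d -0.93. The median over the member genes was 0.39 without 16-week sample 1, where all genes gave 0.04. Leaving out 16-week sample 2 gave 0.03, where all genes gave 0.10.

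Among the 49 tested member genes 27 were highest in 16-week sample 2, or 55.1%, beside 26.5% of all tested genes. The full order, highest in 16-week sample 2 and lowest in 16-week sample 1, was found in 12 member genes: Krt1, Krt4, Krt13, Krt71, Krt81, Lor, Ppl, Sprr2b, Sprr2d, Sprr2i, Sprr2j-ps and Sprr3. All tested genes gave 4.13%, and this order was chosen after the values were seen. The 16-week samples differed by over 2-fold in 7 member genes, against 8.95% of all genes, and the 8-week samples in 2, Krt17 and Sprr1a, against 7.76%. Besides the 6 genes above the 7th was Sprr2h, which lay the other way, at 25.7 and 9.6 in the 16-week samples and 13.9 and 6.5 in the 8-week samples. The 14 tested cornified envelope genes summed to 2851 and 4071 in the 16-week samples and 2909 and 3070 in the 8-week samples.

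**Figure D3:**
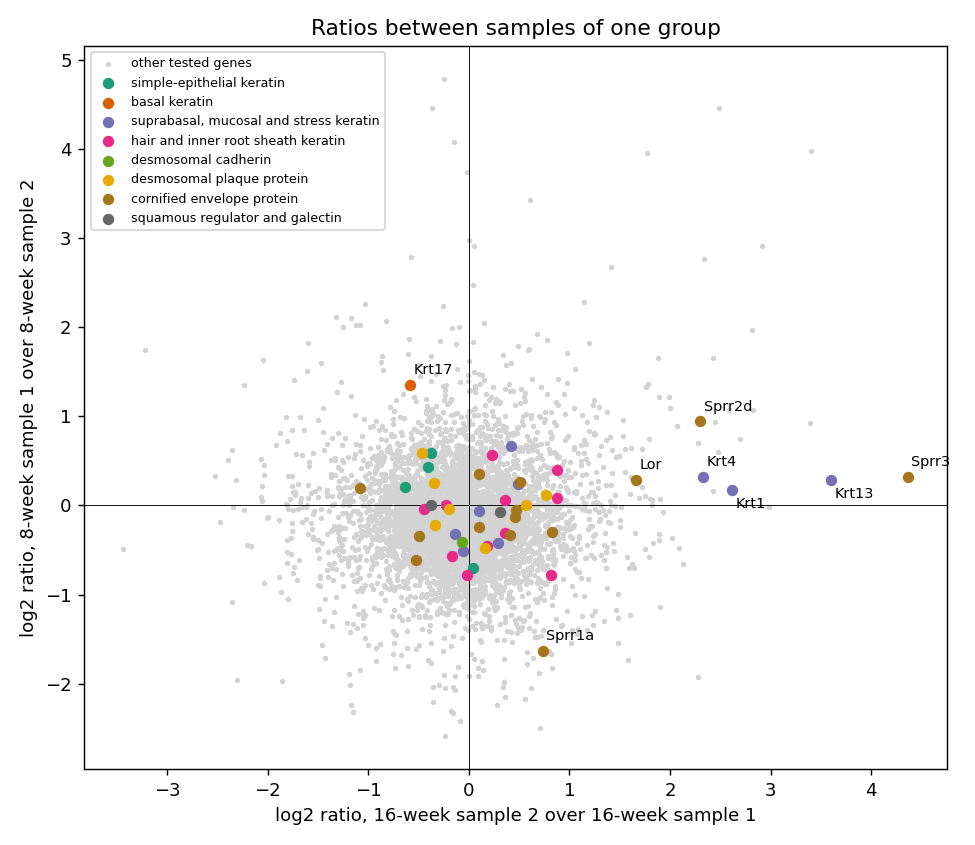
Log2 ratio of 16-week sample 2 to sample 1 (x axis) against that of 8-week sample 1 to sample 2 (y axis) for all 5864 tested genes, with member genes coloured by role and other genes in grey. Sprr3, Krt13, Krt1, Krt4, Sprr2d and Lor lie to the right, near 0 on the y axis except for Sprr2d (ratio 1.92), while most members sit within the grey cloud.

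Tissue markers outside the squamous family were not level across the same samples. Of 18 listed pancreatic acinar genes 10 were tested, none read 0, and they summed to 2719 and 7742 in the 16-week samples and 4255 and 1398 in the 8-week samples. The protease Ctrb1 read 541 and 2734 in the 16-week samples and 1514 and 223 in the 8-week samples, and the elastase Cela1 226 and 1586 against 834 and 212. Acinar and squamous genes were thus both higher in 16-week sample 2 than in sample 1. The acinar genes also differed between the 8-week samples, with 6 of 10 over 2-fold apart, whereas of the 6 squamous genes 5 differed there by 1.13-fold to 1.25-fold and Sprr2d by 1.92-fold. Their part in the squamous result was not tested, and how the mucosa was dissected is not given in the labels used here.

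**Figure D4:**
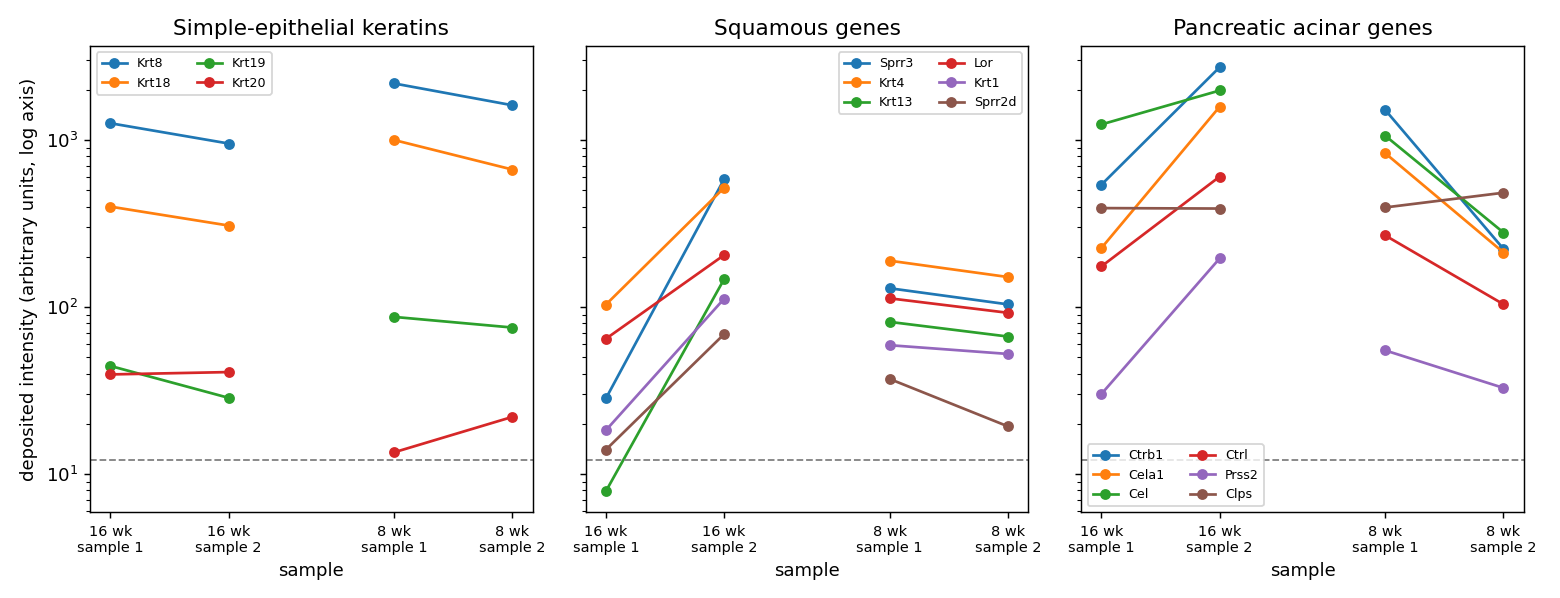
Deposited intensity (log axis) by sample of 4 simple-epithelial keratins, 6 squamous genes and 6 pancreatic acinar genes. Lines join the 2 samples of a group and the dashed line is the floor of 12.15. The squamous genes differ more between the 16-week samples than between the 8-week samples, where Sprr2d has the largest ratio of the 6 (1.92), while most of the acinar genes differ within both groups.

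By their brightest probe sets, the remaining tested keratins of stratified epithelia outside the hair group did not follow the sample order of Sprr3. The hair group's Krt71 and Krt81 did. The basal pair lay mostly under the floor: Krt5 read 4.2 to 6.1 over the 4 samples, and Krt14 lay above the floor in 16-week sample 2 alone, at 19, against 6.1 in 16-week sample 1 and 8.8 and 4.8 at 8 weeks. Krt15, a further basal keratin, read at most 2.2. Krt17, a keratin of basal and stressed cells, read 91.7 and 61.3 in the 16-week samples, against 63.2 and 24.8 in the 8-week samples, on a probe set of reduced design (0.92 ± 0.52). Its 2 other probe sets did not reach the filter and were highest in 16-week sample 2, at 19 and 15.6. They were lowest in 16-week sample 1, at 3.5 and 4.4, and above the floor in 16-week sample 2 alone.

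The stress keratins Krt6b and Krt6a lay slightly higher at 16 weeks. Krt6b read 150 and 161 in the 16-week samples, against 120 and 125 in the 8-week samples, without overlap (0.35 ± 0.23). Krt6a read 68.4 and 83.7 in the 16-week samples, against 55.2 and 73.9 in the 8-week samples, with overlap (0.24 ± 0.28). Their partner Krt16 also overlapped, at 15.6 and 20.8 in the 16-week samples and 19.3 and 10.6 in the 8-week samples (0.23 ± 0.34). The corneal keratin Krt12 read 67.8 and 61.5 in the 16-week samples, against 42.5 and 53.2 in the 8-week samples (0.44 ± 0.25). Of the epidermal keratins Krt2 gave 0.25 and Krt77 0.12. Krt10, the partner of Krt1, was above the floor in 8-week sample 2 alone, at 13.7.

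Probe sets of hair and inner root sheath keratins gave readings above the floor for 11 of 14 genes, although the tissue has no hair. Whether this signal came from those transcripts or from related ones was not tested. Of the 11 genes 9 lay higher at 16 weeks (median 0.33), beside 55.3% of all tested genes (median 0.07). The size depended on scaling. On a common array median the median of these genes was 0.10, where all genes gave -0.13. With the hybridisation controls aligned it was 0.84, where all genes gave 0.60. Krt36, a hair keratin, read 73.2 and 93.7 in the 16-week samples, against 46.9 and 45.0 in the 8-week samples (0.85 ± 0.26; limma adjusted p = 0.326). The probe set of Krt36 is of reduced design. Krt86 read 183 and 181 in the 16-week samples, against 87.3 and 150 in the 8-week samples (0.67 ± 0.34), and Krt31 read 23.5 and 27.5 against 19.7 and 13.3 (0.65 ± 0.30). Neither pair of groups overlapped. Krt34 lay under the floor in both 8-week samples, at 10.2 and 6.0, and read 18.6 and 15.9 at 16 weeks, at least 1.42-fold higher. Krt32 read 40.3 and 51.7 in the 16-week samples, against 31.4 and 39.0 in the 8-week samples (0.38 ± 0.27). Krt33b lay the other way, at 50.6 and 37.1 in the 16-week samples, against 68.5 and 70.3 in the 8-week samples (-0.68 ± 0.27), but a second probe set gave 0.17. Among the rest, Krt72 gave 0.33, Krt35 0.23, Krt81 0.17, Krt71 0.07 and Krt84 -0.06, and a second probe set of Krt35 gave -0.81.

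Desmosomal plaque genes lay in both directions, with a median of 0.10 over the 7 tested. The groups did not overlap in 2 higher (Pkp1 and Pkp3) and 2 lower (Jup and Pkp2) at 16 weeks. All tested genes gave 27.6% higher and 21.1% lower. Desmoplakin (Dsp), which ties keratin filaments to the plaque, read 77.5 and 86.9 in the 16-week samples, against 70.9 and 98.4 in the 8-week samples (-0.03 ± 0.28). Plakoglobin (Jup), shared by desmosomes and adherens junctions, read 68.4 and 53.7 in the 16-week samples, against 90.0 and 75.7 in the 8-week samples (-0.45 ± 0.27). Jup did not overlap between groups, but its difference turned positive, 0.16, with the hybridisation controls aligned. Periplakin (Ppl), a plakin of desmosomes and the cornified envelope, read 108 and 184 in the 16-week samples, against 122 and 113 in the 8-week samples (0.27 ± 0.34), and followed the sample order of Sprr3.

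The plakophilins, which cluster desmosomal proteins under the membrane, lay in different directions. Pkp1, the form of stratified epithelium, read 20.4 and 17.8 in the 16-week samples, against 10.5 and 12.5 in the 8-week samples (0.63 ± 0.24, limma adjusted p = 0.353). The reading in 8-week sample 1 lay under the floor. A second Pkp1 probe set lay under the floor in all samples, at 5.2 and 4.6 in the 16-week samples and 3.7 and 5.4 in the 8-week samples. Pkp2, the form of simple epithelium and heart, read 48.2 and 34.8 in the 16-week samples, against 77.8 and 51.8 in the 8-week samples (-0.63 ± 0.33), and a second probe set gave -0.61. By their brightest probe sets both Pkp1 and Pkp2 separated the groups, in opposite directions, without passing the test. Those probe sets can share probes with related sequences. Pkp3 was under the floor in both 8-week samples, at 10.5 and 10.8, and read 12.5 and 18.6 at 16 weeks, at least 1.25-fold higher. Pkp4, found also outside desmosomes, gave 0.10.

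Of the desmosomal cadherins Dsg2, the desmoglein of simple epithelia, was the 1 gene of 4 that could be tested. It read 35.2 and 33.6 in the 16-week samples, against 25.3 and 33.5 in the 8-week samples (0.24 ± 0.26), and 26.6 and 17.5 against 16.7 and 15.3 on a second probe set (0.43 ± 0.30). The groups did not overlap on either, though by little on the first. The desmocollins of stratified epithelium, Dsc1 and Dsc3, were highest in 16-week sample 2. Dsc1 read 7.9 and 19.7 in the 16-week samples and 9.6 and 6.0 in the 8-week samples, and Dsc3 4.5 and 12 against 6.1 and 4.5. Dsc2, found in most desmosomes, read at most 5.2.

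The groups overlapped in 11 of the 13 tested Sprr genes. Of the 13 tested Sprr genes 9 were read through probe sets of shared or reduced design. Where probes can be shared within this family of near-identical genes, signals cannot be assigned to single members. Sprr1b read 1191 and 1279 in the 16-week samples, against 1069 and 1269 in the 8-week samples, on a probe set of reduced design (0.08 ± 0.24). Its second probe set stayed under the floor, at 1.3 to 6.8. Sprr2e read 521 and 560 in the 16-week samples, against 612 and 478 in the 8-week samples (-0.0019 ± 0.26). Neither of these bright probe sets followed the sample order of Sprr3.

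Sprr2g and Sprr2f were the Sprr genes whose groups did not overlap, both higher at 16 weeks, where all genes gave 27.6% higher. Sprr2g read 349 and 465 in the 16-week samples, against 245 and 310 in the 8-week samples (0.55 ± 0.28), and Sprr2f read 22.9 and 32.5, against 19.8 and 16.5 (0.59 ± 0.29). Sprr1a, an envelope precursor induced by stress, read 32.0 and 53.3 in the 16-week samples, against 11.6 and 37.8 in the 8-week samples. Its difference of 0.95 ± 0.61 rested on 8-week sample 1, without which it was 0.13. The other members overlapped between groups. Sprr2b read 105 and 186 in the 16-week samples, against 113 and 139 in the 8-week samples, Sprr2i 243 and 337 against 267 and 278, and Sprr2j-ps, a pseudogene, 167 and 230 against 204 and 223. Sprr2k read 65.3 and 46.2 in the 16-week samples, against 58.8 and 74.4 in the 8-week samples, and Sprr2c-ps 22.2 and 15.4 against 15.8 and 24.2. Involucrin (Ivl), an early envelope protein, was above the floor in 8-week sample 2 alone, at 12.5.

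Trp63, the transcription factor of basal cells of stratified epithelium, read 21.6 and 16.6 in the 16-week samples, against 12.2 and 9.5 in the 8-week samples (0.64 ± 0.26; limma adjusted p = 0.364). Both 16-week samples were above both 8-week samples, but at levels close to the floor, and the higher of the 16-week readings was in sample 1, where Sprr3 and Krt13 were lowest. Lgals7, a galectin of stratified epithelium, read 8.6 and 15.1 in the 16-week samples, against 11.3 and 12.8 in the 8-week samples (0.12 ± 0.25).

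Other genes of squamous differentiation and junctions gave no call either. Of 51 listed cornification and squamous differentiation genes 27 were tested, and 0 passed limma's test over all probe sets. By sign 17 were higher and 10 lower, and the median difference was 0.23. At an unadjusted limma p under 0.05 there were 2 higher and 4 lower, against 7.52% and 5.82% of all genes. Trichohyalin (Tchh), a filament-linking protein of hair follicle sheath and tongue, read 30.4 and 27.6 in the 16-week samples, against 4.1 and 7.7 in the 8-week samples (1.25 ± 0.23; limma adjusted p = 0.301), a lower bound because both 8-week samples lay under the floor. The Tchh probe set is of reduced design. Annexin A8 (Anxa8) read 9.2 and 9.6 in the 16-week samples, against 23.4 and 24.4 in the 8-week samples (-0.98 ± 0.23), a bound on the size since both 16-week samples lay under the floor. The protease of cornifying cells Casp14 read 44.3 and 65.3 in the 16-week samples, against 5.5 and 26.7 in the 8-week samples (1.58 ± 0.46), with 8-week sample 1 under the floor. In each of these 3 genes the groups did not overlap. Krtdap, a secreted protein of differentiating keratinocytes named here after its values were seen, followed the sample order of Sprr3, at 10.9 and 128 in the 16-week samples, against 88.3 and 46.3 in the 8-week samples. Its ratio between the 16-week samples, at least 10.5, ranked 4th of all tested genes, on a probe set that can share probes with related sequences.

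Adherens junction partners were split, with 5 of 9 tested genes higher and a median of 0.01. The 3 genes with an unadjusted limma p under 0.05 lay lower at 16 weeks, as did 5.82% of all genes at that threshold. They are components that link junctions to actin or to other junctions. Vinculin (Vcl) read 263 and 213 in the 16-week samples, against 402 and 426 in the 8-week samples (-0.81 ± 0.25), β-catenin (Ctnnb1) 455 and 434 against 684 and 692 (-0.63 ± 0.23), and the tight junction scaffold Tjp1 117 and 71.5 against 161 and 173 (-0.87 ± 0.32). E-cadherin (Cdh1) read 123 and 146 in the 16-week samples, against 83.3 and 121 in the 8-week samples (0.42 ± 0.29). Of 13 hemidesmosome and basal layer genes 5 were tested, 2 of them higher, with a median of -0.05. The member with the smallest p there was plectin (Plec), a linker of keratin filaments, at 133 and 107 against 194 and 135 (-0.44 ± 0.30). None of these 14 junction genes passed limma's test over all probe sets.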

How the data were processed

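The deposited table holds the authors' intensity value of each of 12488 probe sets in each of the 4 samples, linear and never negative; array type and groups are taken per the labels. Software, background correction and scaling are not given in the sources used here. Trimmed column means (2% removed at either end) lay within 4.76% of their common mean, so the deposited scale was kept. Genes were named from the platform annotation: of 12422 probe sets other than controls 10833 had 1 symbol, 396 had several and 1193 none.

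Values under 12.15 (the median over arrays of the 40th percentile) were set to that floor, and log2 was taken. Probe sets above it on at least 2 arrays were tested with limma 3.58.1 (lmFit and eBayes, R 4.3.3), 2-sided, with Benjamini-Hochberg adjustment over all 7883 and a threshold of 0.05. The script was tested on simulated data. An exact permutation test of 2 against 2 samples has a smallest p of 0.333. For a gene with several tested probe sets the brightest stood for it. Members, lists and tests were chosen with earlier results of these data known. Member genes were given with every sample's value where the unadjusted p was under 0.1, the groups did not overlap, or the gene was on a fixed list of well-known keratins, desmosomal and envelope genes. From lists of other genes up to 3 with the smallest p under 0.05, or the one with the smallest p, were named. Cdh1, Krtdap, Atp4a, Ckb, Muc5ac, Ctse, Aqp4, Car2, Ctrb1 and Cela1 were chosen after their values were seen. Same-numbered samples did not deviate together (r = -0.05 over probe sets), so the numbers were not taken as pairs.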

Additional observations from a re-analysis of the deposited data

How the results depend on the processing

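Settings other than the reported one were quantile normalization, a common array median, alignment on 18 hybridisation controls, a lower floor, no filter, a stricter filter, the replicate number as a block, probe sets averaged per gene, each sample left out and, chosen after seeing the data, no shared or reduced probe sets. No member gene passed limma's test under any of them (smallest adjusted p of a named member 0.0654); with the replicate block 0 members and 0 of all probe sets passed. Without a filter 22 of 12422 probe sets passed, 0 of them representing a member; many floored values there have no spread. The member median of 0.21 became -0.0092 on a common median, 0.78 with controls aligned (all genes -0.13 and 0.60) and 0.0268 to 0.39 with a sample left out.

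Of 41 named members 22 kept their direction throughout. Where the groups did not overlap, leaving out a sample could not turn the direction. Direction turned in 40 of 509 values. After quantile normalization these were Lgals7 -0.0787, Sprr2j-ps 0.0352 and Sprr2e 0.34, and with the lower floor Lgals7 -0.0778. On a common median they were Lgals7 -0.0104, Sprr2b -0.0574, Sprr1b -0.14, Lor -0.0501, Sprr2d -0.0079, Sprr2i -0.15 and Sprr3 -0.0715. With controls aligned they were Jup 0.16, Sprr2k 0.34, Sprr2j-ps 0.49, Krt1 0.31, Sprr2c-ps 0.53, Dsp 0.58 and Sprr2e 0.61. With a sample left out the ranges were -2.03 to 2.33 for Sprr3, -2.60 to 0.9985 for Krt13, -1.60 to 1.01 for Krt1, -0.71 to 1.61 for Krt4, -0.66 to 1.01 for Lor, -0.93 to 1.36 for Sprr2d, -0.12 to 0.65 for Ppl, -0.26 to 0.21 for Dsp, -0.10 to 0.57 for Krt16, -0.10 to 0.98 for Sprr2h, -0.25 to 0.58 for Sprr2b, -0.17 to 0.31 for Sprr2i, -0.35 to 0.11 for Sprr2j-ps, -0.39 to 0.23 for Sprr2c-ps, -0.0399 to 0.21 for Sprr1b, -0.18 to 0.18 for Sprr2e and -0.0376 to 0.28 for Lgals7. The cause was not tested. Signal over background limits the comparison: 27 of 86 member probe sets did not reach the filter.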
